A study of Mus musculus with 7 samples.

Results

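Chromatin-associated RNA of 7 libraries of undifferentiated mouse embryonic stem cells (mESCs) was compared as 2 sample sets, across all genes and with the cell line held fixed. Set A holds replicates 1 and 2 of both lines (4 libraries) and set B holds replicates 3 and 4 of iXist-ChrX-Dom and replicate 3 of iXist-ChrX-Cast (3 libraries), so all 7 of the 7 samples were used. Members were chosen by the replicate number in the sample titles. All 7 come from female hybrid cells of 129S (Dom) and Cast origin in which a doxycycline-inducible TetOn promoter replaces that of the endogenous Xist gene, on the Dom X chromosome in iXist-ChrX-Dom (n = 4) and on the Cast X chromosome in iXist-ChrX-Cast (n = 3). By their labels both sets are of the same lines and received the same agent, 1 µg/mL doxycycline. It was given for 10 days by the titles and the treatment fields, and neither set was differentiated. Allelic shares on some chromosomes differed between the sets in iXist-ChrX-Cast, as described below. Uninduced libraries were not analysed here, and the values that follow do not measure what Xist does.

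The labels name no batch, and the question is which gene classes part libraries that the labels describe alike. The 2 sets differ in how their files were named, in the free-text description of iXist-ChrX-Dom replicates 3 and 4 (which reads d1 where the titles say d10), and in the clone name given to the files of replicates 1 and 2 of iXist-ChrX-Cast, which is 1 character off from the one in their labels and in the file of replicate 3. Culture, extraction, library preparation, sequencing, a different induction time and a different clone therefore cannot be told apart as sources of any difference below. Each line was given as 1 clone in the labels, and nothing says that replicates came from separate cultures, so p-values measure only the spread between these libraries. In the iXist-ChrX-Cast line set B is a single library.

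mESCs in serum and LIF are a mixture of interconvertible states, and small parts of a culture drift towards primed epiblast, primitive endoderm or other fates. RNA that stays bound to chromatin is mostly RNA still being made, so its counts, taken over introns as well as exons, follow the transcription of a gene more closely than its stock of mature message. Genes that share a regulator, such as the chaperones of the endoplasmic reticulum (ER) under the unfolded protein response, tend to move as a group in such data.

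Counted fragments numbered 14877384 to 24309806 per library. Levels are given as CPM, the count scaled to library size (with TMM factors of 0.957 to 1.03), always in the order iXist-ChrX-Dom 1 and 2, iXist-ChrX-Cast 1 and 2 for set A, and iXist-ChrX-Dom 3 and 4, iXist-ChrX-Cast 3 for set B. Differences, mostly in parentheses, are log2 fold changes of set B over set A from the fit described below, ± their standard error. Naive pluripotency genes were counted in every library (summed over the list, 2645 to 3603 CPM in set A and 3312 to 3424 CPM in set B), except Sox2, which is listed at 0 in every file. It lies within Sox2ot on the same strand, and fragments shared by 2 genes were not counted. Primitive streak markers summed to 10.4 to 14.1 CPM, and of 18 listed only 10 passed the filter on low counts. Fibroblast markers, which would mark the inactivated feeder cells, summed to 118 to 146 CPM in set A and 129 to 144 CPM in set B. Replicates of a line within a set correlated at Spearman 0.994 to 0.996 over genes, and libraries of the same line across sets at 0.981 to 0.989.

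Xist itself, the RNA that silences the X chromosome from which it is made (chrX:103460372-103483233, mm10), was counted at 6650.4, 7042, 6873 and 5338 CPM in set A and 5322, 5773 and 5584 CPM in set B. iXist-ChrX-Cast replicate 2 of set A lay as low as the 3 libraries of set B, so the sets overlapped. The log2 fold change of set B over set A was -0.23, and the difference did not pass the test (edgeR adjusted p = 0.138). Within iXist-ChrX-Dom alone, where the 2 libraries of set B lay below both of set A, it was -0.30 (edgeR adjusted p = 0.0413).

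Across 15890 genes that passed the filter, 4606 differed between the sets (29.0%) at an adjusted p under 0.05 by edgeR's quasi-likelihood test with the line as covariate and Benjamini-Hochberg adjustment over all of them, the test and threshold meant by "called" from here on. Of these, 2486 were higher in set B (15.6%) and 2120 lower (13.3%). Most differences were small, since 420 of the called genes reached a log2 fold change of 1 in size, 146 higher and 274 lower. The count rested most on iXist-ChrX-Cast replicate 3, without which 2518 genes were called, and without the line as covariate it was 2325. Irrespective of the test, 3609 genes (22.7%) lay higher and 3384 (21.3%) lower in every set B library than in every set A library of the same line. Genes that parted all libraries of the sets across both lines, as named below, are a subset of these, and their own share is not given.

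The lines, which share no library, were fitted apart to see whether the same genes parted the sets in both. Within iXist-ChrX-Dom (2 libraries against 2) 1592 of 15231 genes were higher (10.5%) and 1259 lower (8.27%). Of the 1591 of the former tested in both lines, 92.8% had a positive difference in iXist-ChrX-Cast, where 50.8% of all 15023 shared genes had one, and 658 were called higher there against 5 called lower. Of the 1246 called lower, 94.1% had a negative difference, with 522 called lower and 3 higher. Across the 15023 genes, which are not independent replicates, the differences correlated at Spearman 0.608. The difference between the lines passed the interaction test for 7 genes (0.0441%), described at the end.

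**Figure D1:**
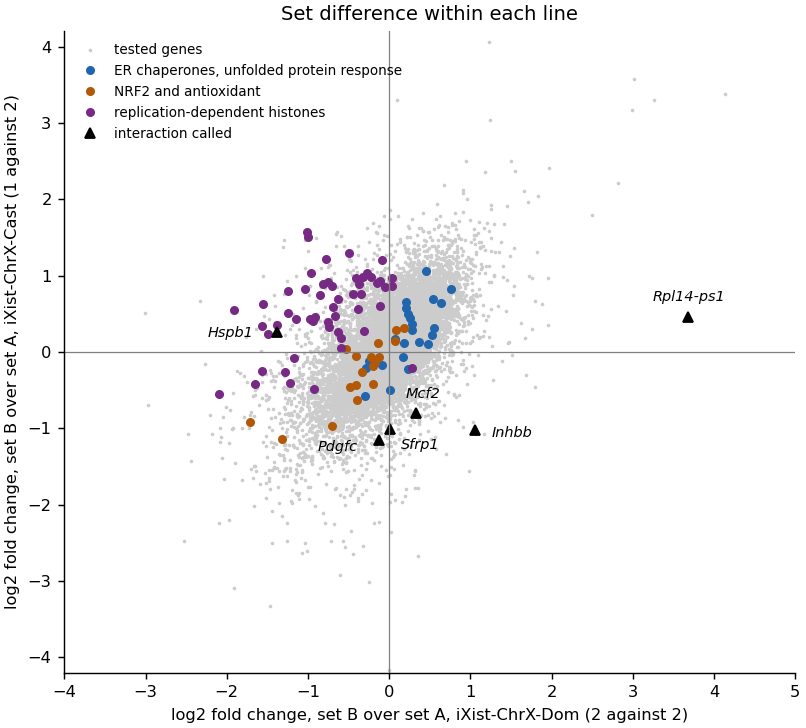
Each point is 1 of 15023 genes tested in both lines, placed by its log2 fold change of set B over set A within iXist-ChrX-Dom (x axis, 2 libraries against 2) and within iXist-ChrX-Cast (y axis, 1 against 2). Genes of the ER list (blue) lie mostly in the upper right and those of the antioxidant list (orange) mostly in the lower left, replication-dependent histone genes (purple) lie mostly in the upper left, and 6 of the 7 genes with a called interaction, those named here, are black triangles.

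Of base composition, gene length and chromosome, base composition tracked the difference most widely. Genes whose transcripts are rich in G and C were higher in set B and AT-rich genes lower: log2 fold change and transcript GC content correlated at Spearman 0.393 over 15106 genes (0.239 within iXist-ChrX-Dom and 0.527 within iXist-ChrX-Cast). In the lowest of 10 equal classes of genes by GC content (median 39.5%), 2.91% were called higher and 31.2% lower, with a median log2 fold change of -0.21. In the highest class (median 59.6%), 30.8% were called higher and 3.44% lower, with a median of 0.27. The richest 20% of genes by GC content took 4.86% to 5.56% of counts in set A and 6.07% to 7.35% in set B, without overlap (exact two-sided permutation p = 0.0556, the smallest the 18 arrangements within lines can give; 0.130 adjusted over 7 shares). The poorest 20% took 35.8% to 37.9% and 32.7% to 34.3% (exact permutation p = 0.0556).

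**Figure D2:**
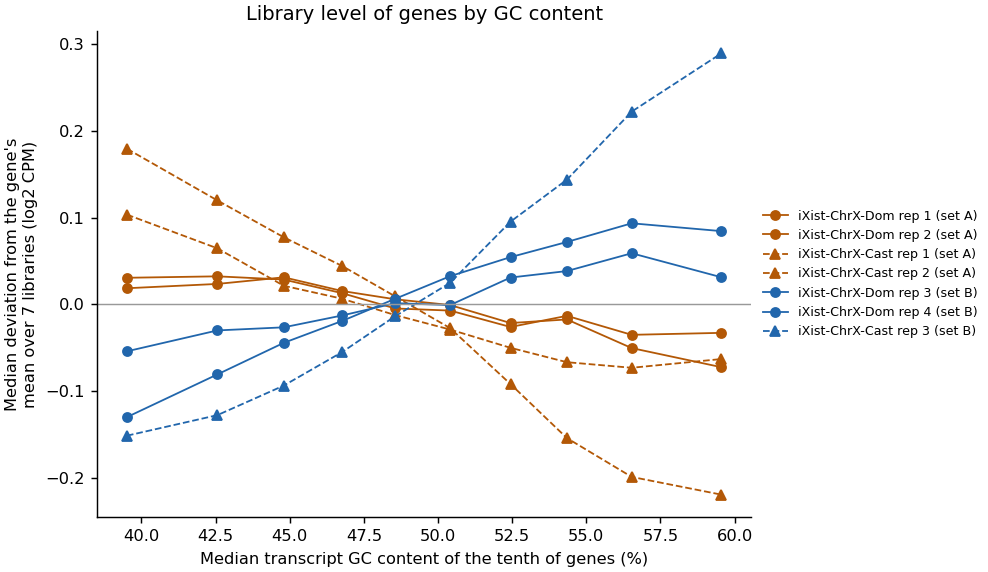
Median deviation of each library from the gene's mean over the 7 libraries (y axis, log2 CPM) in 10 equal classes of genes by transcript GC content (x axis, median of the class in %), with set A in orange, set B in blue, iXist-ChrX-Dom as circles and iXist-ChrX-Cast as triangles. In the lowest class the set A libraries lie at 0.0186 to 0.180 and the set B libraries at -0.152 to -0.0542, in the highest class they lie at -0.220 to -0.0329 and 0.0312 to 0.290, and iXist-ChrX-Cast replicates 1 and 3 lie furthest apart in both.

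Because composition moved with the sets, the counts of the lists below are also given after per-library offsets had removed the trend (Spearman 0.0105 thereafter). With these offsets 1956 genes were called higher (12.3%) and 1886 lower (11.9%), and 3009 of the 4606 genes stayed called, each in the same direction. GC content was that of the longest annotated transcript, whereas counts also cover introns. Whether the trend arose in the cells or in library preparation was not tested. Gene length moved far less with the sets (Spearman -0.0619), but it did so in opposite ways in the 2 lines. The 135 tested genes of at most 1000 bp had a median log2 fold change of -0.42 within iXist-ChrX-Dom and 0.43 within iXist-ChrX-Cast. Results on very short genes are therefore given by line.

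The autosomes and the X differed little within iXist-ChrX-Dom, where median log2 fold changes ran from -0.088 (chromosome 13) to 0.081 (chromosome 7). Within iXist-ChrX-Cast they ran from -0.26 on chromosome 1 and -0.22 on chromosome 14 to 0.21 on chromosome 8, with the X at -0.21. On those 3 autosomes the allelic makeup moved as well. The median share of allelic fragments from Cast was 42.5% and 42.1% in iXist-ChrX-Cast replicates 1 and 2 but 46.0% in replicate 3 on chromosome 1, 54.2% and 54.0% but 49.1% on chromosome 14, and 45.3% and 45.1% but 50.0% on chromosome 8. On chromosome 2 it was 46.8%, 46.6% and 47.2%. Leaving out chromosomes 1, 5, 8, 12 and 14, those whose allelic shares differ from the rest in some libraries, left 3481 of 11972 genes called.

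The X chromosome held 562 tested genes, of which 43 were higher (7.65%) and 121 lower (21.5%), with a median log2 fold change of -0.11 and of -0.035 after GC offsets. X-linked genes took 4.41% to 4.76% of counts in set A and 4.21% to 4.34% in set B, without overlap (exact two-sided permutation p = 0.0556, the smallest possible). Their transcripts had a median GC content of 45.4%, against 49.5% over all tested genes.

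**Figure D3:**
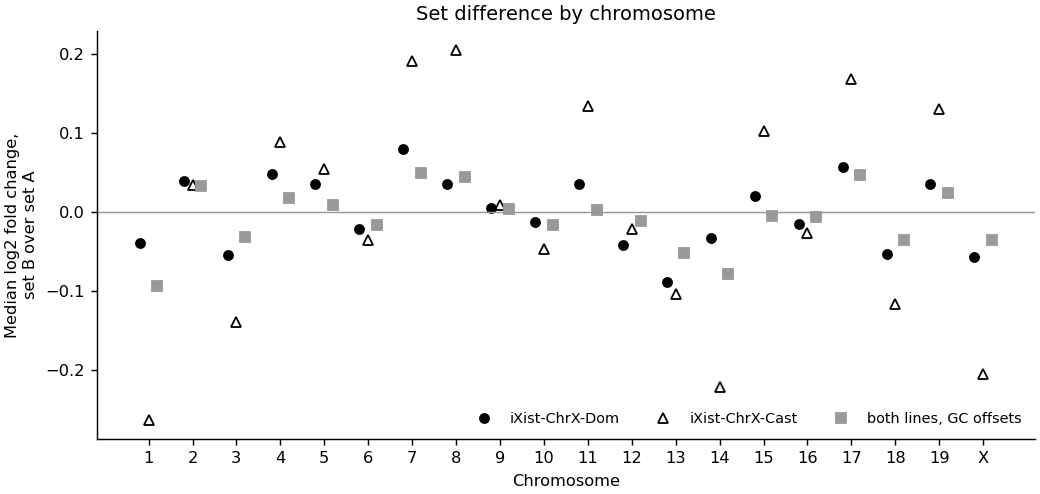
Median log2 fold change of set B over set A for the tested genes of each chromosome (x axis) within iXist-ChrX-Dom (black circles), within iXist-ChrX-Cast (open triangles) and in both lines after GC offsets (grey squares). Chromosomes 1 and 14 (-0.26 and -0.22) and 8 (0.21) stand furthest from 0 in iXist-ChrX-Cast, and the grey squares run from -0.094 on chromosome 1 to 0.050 on chromosome 7.

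The chaperones and enzymes of the ER formed, among the lists with at least 6 tested members, the one with the largest share called higher. Of 23 genes of the unfolded protein response, all tested, 13 were higher in set B (56.5%), 1 was lower and 9 were not called, with a median log2 fold change of 0.32 against 0.0068 over all genes. Their GC content was ordinary (median 50.0%), and after GC offsets 10 were higher and 0 lower. Within iXist-ChrX-Dom 7 were higher and 0 lower. Summed over the list the share of all counts was 0.177% to 0.234% in set A and 0.226% to 0.261% in set B (exact two-sided permutation p = 0.111). The number called depended on single libraries, falling to 8 without iXist-ChrX-Dom replicate 2, 7 without iXist-ChrX-Cast replicate 1, 6 without iXist-ChrX-Dom replicate 3 and 7 without iXist-ChrX-Cast replicate 3.

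Hspa5, the ER chaperone BiP and the central regulator of the unfolded protein response, was counted at 161, 139, 164 and 239.9 CPM in set A and 242, 187 and 238 CPM in set B (log2 fold change 0.40 ± 0.12, edgeR adjusted p = 0.0228). Its iXist-ChrX-Cast replicate 2 reached the level of set B, so the sets overlapped. Calr, the calcium-binding chaperone calreticulin, stood at 201, 131, 140.1 and 215 CPM in set A against 283, 231 and 279.6 CPM in set B (log2 fold change 0.64 ± 0.14, edgeR adjusted p = 0.0034). Hyou1, a large chaperone that recharges BiP, had 96.7, 77.4, 76.7 and 109.9 CPM in set A and 134, 118 and 152 CPM in set B (0.60 ± 0.11, edgeR adjusted p = 0.0011). For Calr and Hyou1 every library of set B lay above every library of set A.

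Herpud1, a membrane protein of the machinery that removes misfolded proteins from the ER, gave 8.93, 7.64, 4.99 and 7.13 CPM in set A and 14.3, 13.7 and 10.9 CPM in set B (0.79 ± 0.14, edgeR adjusted p = 0.000732), the largest change of the list. Syvn1, the ubiquitin ligase of the same machinery, gave 6.83, 7.76, 6.18 and 6.17 CPM in set A and 9.07, 10.8 and 12.9 CPM in set B (0.69 ± 0.15, edgeR adjusted p = 0.00285). Neither overlapped between sets. Calr and Herpud1 lie on chromosome 8, whose median log2 fold change was 0.21 within iXist-ChrX-Cast and 0.035 within iXist-ChrX-Dom. Within iXist-ChrX-Dom alone, both genes were higher in each library of set B than in each of set A. Pdia3, a disulfide isomerase that works with calreticulin, was at 105, 83.9, 109 and 135 CPM in set A and 146, 129.9 and 154 CPM in set B (0.46 ± 0.10, edgeR adjusted p = 0.00335). Of the 3 stress sensors and factors at the head of the pathway, Xbp1, the transcription factor that drives many of these genes, was called (0.39 ± 0.11, edgeR adjusted p = 0.015), while the sensors Ern1 (0.11, edgeR adjusted p = 0.409) and Atf6 (0.05, edgeR adjusted p = 0.728) were not. Dnajb9, a BiP cochaperone, was the member lower in set B (-0.41 ± 0.12, edgeR adjusted p = 0.0173), and after GC offsets it was not called.

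Promoters of several ER chaperones carry the ER stress response element, whose letters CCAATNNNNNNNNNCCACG were searched on both strands of RefSeq promoter windows (300 bases around each start, GRCm38.p6). It was found in 39 of 32851 windows (0.119%). Of the 23 listed genes 20 had a window and 9 of these a match (45.0%), and of the 9 genes 7 were higher in set B, 0 were lower and 2, Dnajc3 and Derl3, were not called. Among the other listed genes with a window 4 were higher. Across all 23 tested genes with a match, listed or not, 8 were higher and 1 lower (34.8% and 4.35%, against 15.6% and 13.3% of all genes). However, 7 of these 8 higher genes were the listed ones above, so the pooled share mostly restates the list. The matched stretches are shown because they are what 7 of the called chaperones share in sequence. Capitals mark the match, each stretch is read 5′ to 3′ on the strand of its gene, and a match on the opposite strand begins CGTGG. A match describes letters and not binding.
Hspa5 (chr2:34772010-34772058, plus strand): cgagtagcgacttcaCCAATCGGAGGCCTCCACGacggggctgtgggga
Calr (chr8:84847060-84847108, minus strand): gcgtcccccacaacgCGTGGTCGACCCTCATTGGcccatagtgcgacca
Canx (chr11:50325785-50325833, minus strand): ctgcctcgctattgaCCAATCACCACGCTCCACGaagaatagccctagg
Pdia6 (chr12:17266476-17266524, plus strand): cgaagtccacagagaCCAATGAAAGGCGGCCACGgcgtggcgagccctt
Syvn1 (chr19:6046517-6046565, plus strand): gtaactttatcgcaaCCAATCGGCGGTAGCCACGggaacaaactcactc
Creld2 (chr15:88819505-88819553, plus strand): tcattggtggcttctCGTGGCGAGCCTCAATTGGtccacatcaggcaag
Hsp90b1 (chr10:86705518-86705671, minus strand): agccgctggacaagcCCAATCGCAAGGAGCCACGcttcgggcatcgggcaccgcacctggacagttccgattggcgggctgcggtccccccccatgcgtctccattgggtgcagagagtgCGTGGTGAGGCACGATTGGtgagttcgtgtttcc
Dnajc3 (chr14:118937812-118937860, plus strand): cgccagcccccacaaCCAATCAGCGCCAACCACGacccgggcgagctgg
Derl3 (chr10:75893227-75893275, plus strand): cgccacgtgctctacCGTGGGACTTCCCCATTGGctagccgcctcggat

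Hsp90b1, the ER chaperone with 2 matches, had 250.2, 214, 307 and 397 CPM in set A and 348, 295 and 381 CPM in set B (0.33 ± 0.11, edgeR adjusted p = 0.0351), and its sets overlapped because iXist-ChrX-Cast replicate 2 was the highest library of all. Canx, the membrane-bound partner of calreticulin, had 0.27 ± 0.10, edgeR adjusted p = 0.0412, Pdia6, a disulfide isomerase, had 0.34 ± 0.11, edgeR adjusted p = 0.0248, and Creld2, an ER-resident stress protein, had 0.35 ± 0.12, edgeR adjusted p = 0.0387. The 2 genes with a match and no call were Dnajc3, an ER cochaperone (-0.19, edgeR adjusted p = 0.208), and Derl3 (-0.25, edgeR adjusted p = 0.377). These 6 genes are named for their match rather than for the size of their change.

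In other stress lists, without GC offsets, each share called was under that of all genes in its direction (15.6% higher and 13.3% lower). The nearest was the integrated stress response, at 13.3% higher and 6.67% lower. The NRF2 list is described further below. Of 30 genes of the integrated stress response under ATF4, 4 were higher and 2 lower (2 and 4 after GC offsets, and 1 to 3 higher with 1 library left out). Ddit3, the stress factor CHOP, was higher at 4.03, 4.06, 4.22 and 3.36 CPM in set A and 6.83, 6.69 and 7.26 CPM in set B (0.82 ± 0.15, edgeR adjusted p = 0.00106) without overlap, and it lies on both the ER and the amino acid arm of the response. Slc7a11, the cystine transporter, was lower (-0.78 ± 0.20, edgeR adjusted p = 0.00848). Cytosolic heat shock proteins and cochaperones gave 0 higher and 1 lower of 17, the cochaperone Dnaja1 (-0.41), and 0 and 2 after GC offsets. Hypoxia genes gave 1 higher and 0 lower of 14, with and without offsets. p53 targets gave 2 higher (Perp and Ei24) and 0 lower of 22, and 3 and 0 after GC offsets.

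**Figure D4:**
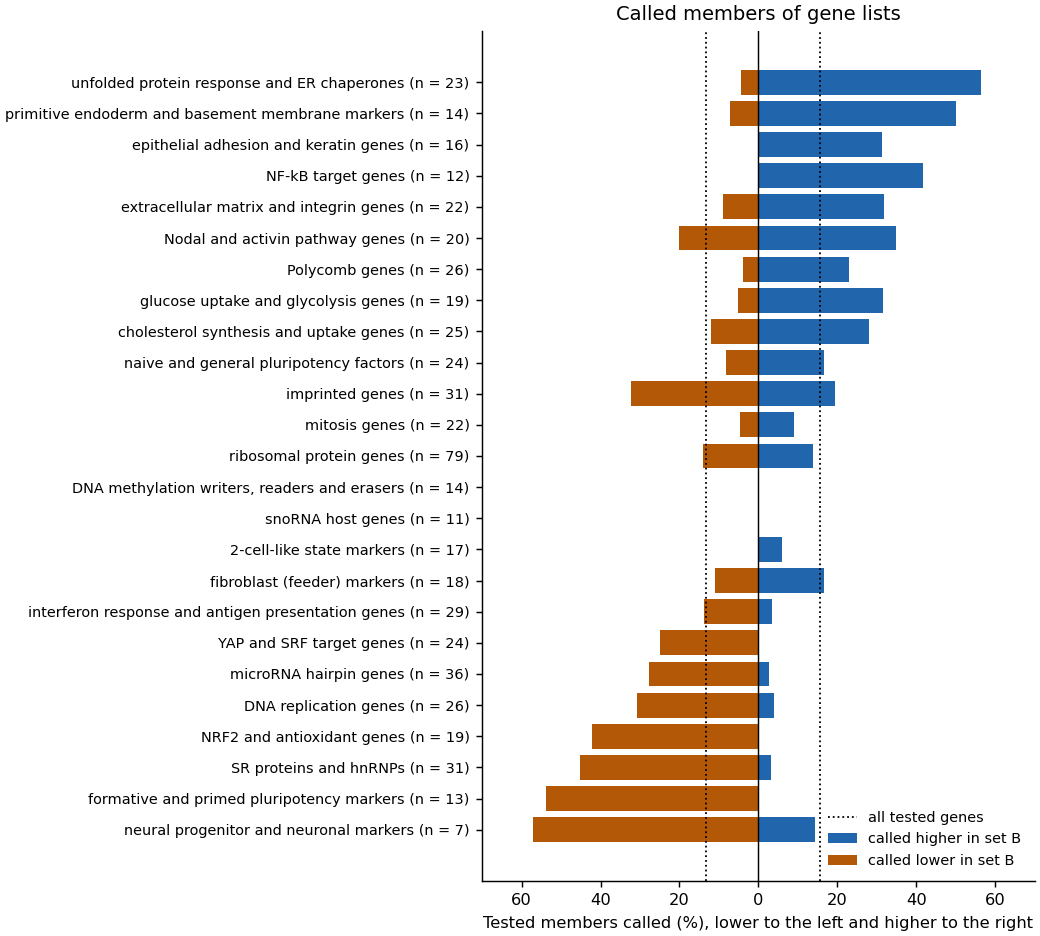
Members of 25 gene lists called higher (blue, right) and lower (orange, left) in set B as a percentage of the tested members (x axis), with the number tested beside each name and the shares over all genes as dotted lines. The ER list stands at 56.5% higher, the primitive endoderm list at 50.0% higher and the formative list at 53.8% lower, against 15.6% and 13.3% of all genes.

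Antioxidant genes under NRF2 went the other way. Of 19 genes 0 were higher and 8 lower in set B (42.1%, median log2 fold change -0.27), and after GC offsets 10 were lower. Within iXist-ChrX-Dom 7 were lower. Nfe2l2, which encodes NRF2 itself, was counted at 105, 104, 136 and 122 CPM in set A and 82.5, 76.0 and 84.2 CPM in set B (-0.49 ± 0.09, edgeR adjusted p = 0.0007). Gclc, the catalytic subunit of the enzyme that limits glutathione synthesis, had 194, 197, 197 and 189.5 CPM in set A and 122, 117 and 99.0 CPM in set B (-0.81 ± 0.08, edgeR adjusted p = 1.18e-05). For both, all 3 libraries of set B lay below all 4 of set A.

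The steepest of the list were the metallothioneins, small cysteine-rich proteins that bind zinc and copper. Mt1 was at 15.8, 18.2, 11.5 and 14.8 CPM in set A and 5.44, 4.85 and 7.01 CPM in set B (-1.40 ± 0.17, edgeR adjusted p = 4.07e-05) and Mt2 at 13.8, 9.87, 8.85 and 11.2 CPM in set A and 4.70, 4.75 and 4.61 CPM in set B (-1.25 ± 0.16, edgeR adjusted p = 5.84e-05). Neither overlapped between sets, in either line. Mt1 and Mt2 are neighbours on chromosome 8 and answer to metals through the metal response element, whose core letters TGCACNC or TGCGCNC occur in 25.7% of promoter windows on either strand. Of 4648 tested genes with a match 17.9% were higher and 14.7% lower, near the 15.6% and 13.3% of all genes. The match thus did not mark genes that fell. The Mt1 window held 1 match and that of Mt2 held 3. The Mt1 match is shown with its surroundings, the core in capitals.
Mt1 (chr8:94179056-94179082, plus strand): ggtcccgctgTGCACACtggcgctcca

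Hmox1, heme oxygenase, was lower within each line although the lines differ in level (37.1, 39.0, 23.2 and 24.1 CPM in set A and 28.7, 25.5 and 17.3 CPM in set B, -0.48 ± 0.10, edgeR adjusted p = 0.00188). Prdx1, a peroxidase, had -0.41 ± 0.09, edgeR adjusted p = 0.00262. Nqo1 (-0.17, edgeR adjusted p = 0.34), a classical NRF2 target, and Srxn1 (0.24, edgeR adjusted p = 0.34) were not called, and Keap1, the inhibitor of NRF2, was called only after GC offsets (-0.52). The list is thus led by metallothioneins and glutathione synthesis, and 11 of its 19 members were not called. The antioxidant response element core, TGACNNNGC, was found in 12.4% of windows. Of 1953 tested genes with a match 15.9% were higher and 14.2% lower, near the 15.6% and 13.3% of all genes.

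Called lineage markers of primitive endoderm and basement membrane were mostly higher in set B. Those of primed epiblast and neural cells were mostly lower, with exceptions in the endoderm and neural lists. Of 14 tested primitive endoderm and basement membrane genes 7 were higher in set B and 1 lower (median log2 fold change 0.62), and after GC offsets 6 and 1. Within iXist-ChrX-Dom 9 were higher and 1 lower (median 0.69), and within iXist-ChrX-Cast 4 and 1 (median 0.28). The list took 0.0779% to 0.130% of counts in set A and 0.118% to 0.137% in set B, which overlapped (exact two-sided permutation p = 0.111). In bulk RNA a larger share of such cells and more RNA per cell cannot be told apart. Hnf4a, Afp, Ttr and Cited1 did not pass the filter, and Sox17, a defining factor, was at most 0.713 CPM in any library.

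Gata4, a transcription factor that specifies primitive endoderm, was counted at 3.07, 3.01, 4.22 and 3.82 CPM in set A and 5.07, 5.62 and 6.61 CPM in set B (0.78 ± 0.16, edgeR adjusted p = 0.00184), without overlap. Gata6, the factor that starts that fate, had 3.15, 1.87, 4.43 and 5.55 CPM in set A and 5.71, 5.11 and 5.81 CPM in set B (0.73 ± 0.22, edgeR adjusted p = 0.0195), and it differed within iXist-ChrX-Dom (1.12) more than within iXist-ChrX-Cast (0.20), a difference that did not pass the interaction test, and it was not called after GC offsets (0.53). Pdgfra, the surface receptor of these cells, missed the threshold (0.42, edgeR adjusted p = 0.0555).

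Col4a1, a chain of the collagen of basement membranes, had 75.2, 58.1, 50.5 and 79.4 CPM in set A and 143, 121 and 107 CPM in set B (0.88 ± 0.13, edgeR adjusted p = 0.000199). Col4a2, transcribed from the same promoter region in the other direction, had 41.0, 32.5, 29.3 and 43.1 CPM in set A and 76.9, 73.1 and 59.3 CPM in set B (0.90 ± 0.12, edgeR adjusted p = 9.89e-05). Both were higher in every library of set B than in any of set A, as were Sparc (0.76 ± 0.14, edgeR adjusted p = 0.000776), a collagen-binding protein, and Cubn (0.81 ± 0.15, edgeR adjusted p = 0.00106), an endocytic receptor of visceral endoderm. Col4a1 and Col4a2 lie on chromosome 8, whose median differed within iXist-ChrX-Cast, but within iXist-ChrX-Dom their log2 fold changes were 0.99 and 1.03. Dab2, the adaptor that works with such receptors and a usual marker of the same cells, was lower in every library of set B: 47.4, 42.5, 41.7 and 36.6 CPM in set A and 28.5, 28.3 and 24.0 CPM in set B (-0.68 ± 0.09, edgeR adjusted p = 0.000114).

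Markers of trophoblast gave 4 higher and 0 lower of 9 (3 and 0 after GC offsets, and 2 without iXist-ChrX-Dom replicate 3), of which Tfap2c was at 17.3 CPM or more and the other 3 were low. Krt7, a simple epithelial keratin, had 0.744, 0.691, 0.492 and 0.713 CPM in set A and 1.76, 1.48 and 3.21 CPM in set B (1.68 ± 0.29, edgeR adjusted p = 0.000605) and Plac1 0.394, 0.162, 0.351 and 0.306 CPM in set A and 1.12, 0.766 and 0.651 CPM in set B (1.46 ± 0.41, edgeR adjusted p = 0.0132). Gcm1, a factor of placental syncytium, had 0.88 ± 0.18, edgeR adjusted p = 0.00164. Tfap2c and Gcm1 are transcription factors of that lineage. Among other such factors Cdx2 did not pass the filter, and Elf5 (-1.20), Gata3 (0.04) and Tfap2a (-0.07) were not called, with edgeR adjusted p of 0.109, 0.904 and 0.778. Of primitive streak markers 0 of 10 were called by edgeR or DESeq2 (1 at an unadjusted edgeR p under 0.05). Of genes of the 2-cell-like state 1 of 17 was higher, Usp17le (3 after GC offsets). Usp17le has near-identical copies, and only its uniquely aligned reads were counted.

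Formative and primed pluripotency genes were lower in set B. Of 13 tested, 0 were higher and 7 lower (53.8%, median log2 fold change -0.35), with 8 lower after GC offsets and 5 within each line. Leaving out any single library left 5 to 7. Fgf5, the growth factor that marks the exit from naive pluripotency, was counted at 10.9, 16.8, 29.2 and 24.6 CPM in set A and 8.11, 10.7 and 12.6 CPM in set B (-0.78 ± 0.17, edgeR adjusted p = 0.00263). It was lower within each line, and iXist-ChrX-Cast had the higher level in both sets.

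Zic2 and Zic5, a pair of divergently transcribed zinc finger genes of early epiblast, parted the sets completely. Zic2 had 27.4, 21.5, 24.1 and 23.9 CPM in set A and 15.3, 18.2 and 9.92 CPM in set B (-0.81 ± 0.15, edgeR adjusted p = 0.00094) and Zic5 32.5, 27.5, 25.6 and 30.2 CPM in set A and 18.7, 19.098 and 12.7 CPM in set B (-0.84 ± 0.12, edgeR adjusted p = 0.000175). Sall2, another zinc finger factor, had 7.23, 7.56, 5.83 and 5.61 CPM in set A and 3.84, 3.57 and 2.81 CPM in set B (-1.01 ± 0.16, edgeR adjusted p = 0.000253). Zic2, Zic5 and Sall2 lie on chromosome 14, whose median was -0.22 within iXist-ChrX-Cast, and within iXist-ChrX-Dom, where it was -0.033, their log2 fold changes were -0.54, -0.66 and -0.99. Pou3f1, the POU factor of primed epiblast, was low throughout (-0.96 ± 0.26, edgeR adjusted p = 0.0107), and Cdh2, N-cadherin, had -0.38 ± 0.10, edgeR adjusted p = 0.00958. Otx2 (0.04), the factor that opens formative enhancers, Dnmt3a (-0.09) and Dnmt3b (0.06) were not called.

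Neural genes were lower as well, 4 of the 7 that passed the filter (median -0.67), with 1 higher. After GC offsets 4 were lower and 0 higher. Sox11, a factor of neural progenitors, had 36.0, 36.8, 45.4 and 38.6 CPM in set A and 18.1, 16.3 and 16.1 CPM in set B (-1.20 ± 0.11, edgeR adjusted p = 4.7e-06). Pax6 had 18.8, 18.6, 8.08 and 7.39 CPM in set A and 9.13, 10.7 and 3.66 CPM in set B (-0.97 ± 0.13, edgeR adjusted p = 8.43e-05) and differed within each line, with iXist-ChrX-Cast at the lower level. Nes, the intermediate filament nestin, had 25.7, 21.5, 12.1 and 14.7 CPM in set A and 14.4, 10.4 and 11.3 CPM in set B (-0.67 ± 0.16, edgeR adjusted p = 0.00478), and the difference lay mainly in iXist-ChrX-Dom (-0.92 against -0.26). Tubb3, a neuronal tubulin, was the higher member (0.43 ± 0.14, edgeR adjusted p = 0.0336). It was not called after GC offsets (0.17), and its difference lay mainly in iXist-ChrX-Cast (0.80, against 0.18 within iXist-ChrX-Dom). Sox1 and Hes5, which mark neural progenitors, did not pass the filter.

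Few naive pluripotency genes were called. Of 24 tested, 4 were higher and 2 lower (median 0.15), or 2 and 3 after GC offsets, shares near those of all genes, and the 4 became 2 without iXist-ChrX-Dom replicate 3. Pou5f1, the factor OCT4, had 60.9, 70.6, 56.1 and 77.8 CPM in set A and 84.6, 77.7 and 116 CPM in set B (0.50 ± 0.12, edgeR adjusted p = 0.00469) and was not called after GC offsets (0.25). Zfp42 (REX1) had 427, 435, 371 and 383 CPM in set A and 599.9, 584 and 429 CPM in set B (0.35 ± 0.09, edgeR adjusted p = 0.00689). Nanog (0.18), Esrrb (0.23), Klf4 (0.21) and Tfcp2l1 (-0.17) were not called. The lower members were Gbx2 (-0.84 ± 0.23, edgeR adjusted p = 0.0125) and Nr0b1 (-0.60 ± 0.12, edgeR adjusted p = 0.00164), both targets of LIF or WNT signals.

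**Figure D5:**
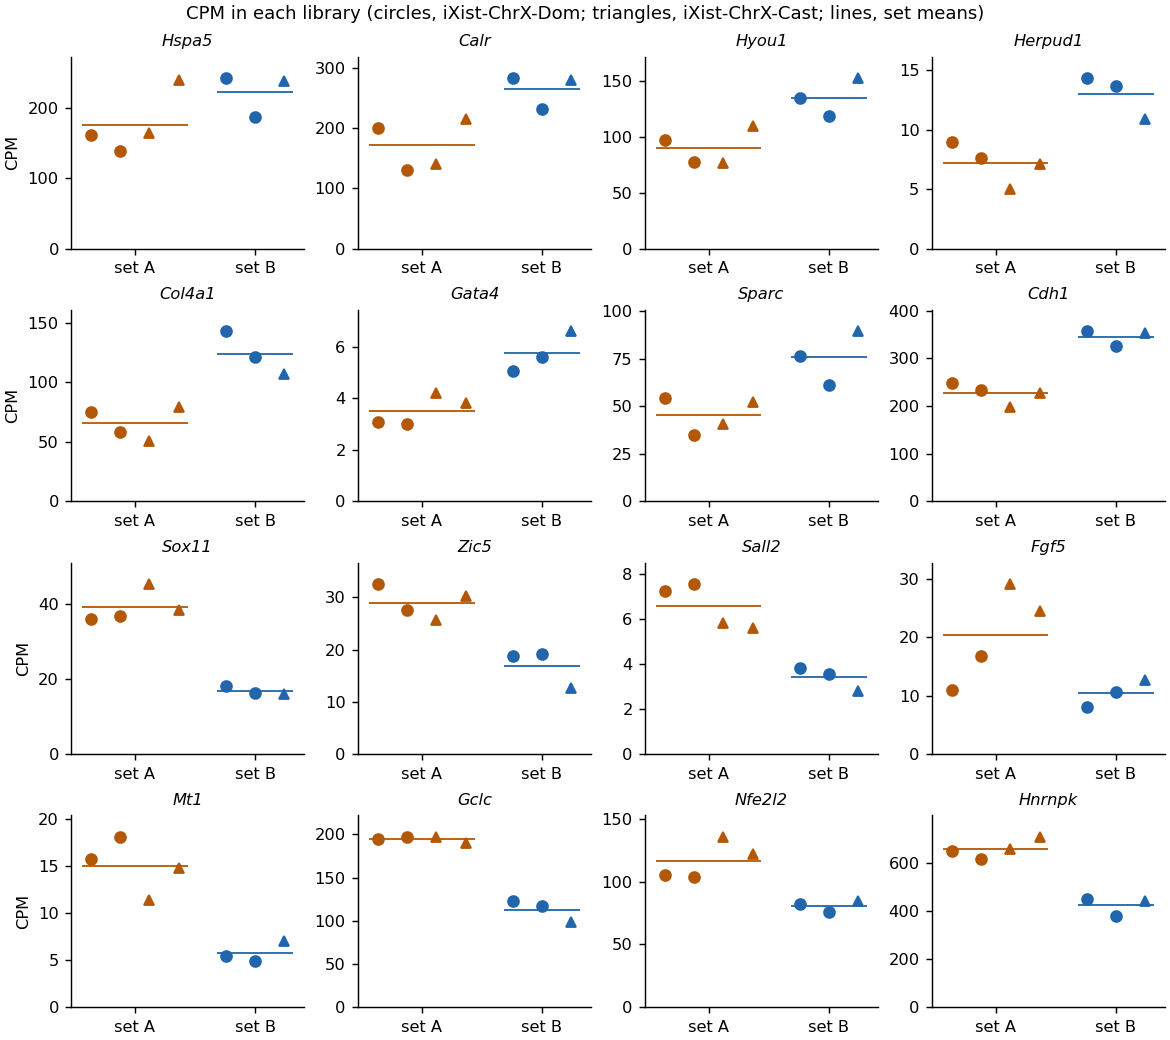
CPM of 16 named genes in each library (y axes start at 0 and differ between panels), with set A in orange, set B in blue, iXist-ChrX-Dom as circles, iXist-ChrX-Cast as triangles and the mean of each set as a line. The upper 2 rows hold genes higher in set B, from Hspa5, whose sets overlap, to Cdh1, and the lower 2 rows hold genes lower in set B, with Sox11 at 36.0 to 45.4 CPM in set A and 16.1 to 18.1 CPM in set B.

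In most signalling pathways calls fell in both directions, as they did over all genes (15.6% higher and 13.3% lower). In the Nodal pathway, which keeps epiblast cells primed and patterns the embryo, 7 of 20 genes were higher and 4 lower (35.0% and 20.0%, with 3 and 2 genes after GC offsets), the 4 became 2 without iXist-ChrX-Cast replicate 3, and the median (0.011) changes sign with the scaling. The ligand Nodal had 16.1, 16.9, 19.6 and 25.8 CPM in set A and 28.1, 24.6 and 32.8 CPM in set B (0.61 ± 0.11, edgeR adjusted p = 0.000996). Its feedback inhibitor Lefty2 had 25.8, 21.2, 45.3 and 65.5 CPM in set A and 67.6, 59.9 and 81.1 CPM in set B (1.08 ± 0.16, edgeR adjusted p = 0.000182), and Lefty1, the other inhibitor, 0.45 ± 0.16, edgeR adjusted p = 0.0471. For Nodal and Lefty2 the sets parted within each line but not across lines, because iXist-ChrX-Cast had higher levels.

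Among the transducers of the same pathway Smad3 was higher (0.59 ± 0.11, edgeR adjusted p = 0.000876) and Smad2 lower (-0.27 ± 0.09, edgeR adjusted p = 0.0265), as was the receptor Acvr2a (-0.41 ± 0.08, edgeR adjusted p = 0.00212). Foxh1, the DNA-binding partner of both SMADs, was higher (0.51 ± 0.14, edgeR adjusted p = 0.0118). Smad2 and Foxh1 were not called after GC offsets (-0.17 and 0.25). The coreceptor Tdgf1 was not called (0.04).

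FGF and ERK feedback genes gave 1 higher and 3 lower of 14 (7.14% and 21.4%, with 1 and 5 genes after GC offsets), and the members that usually follow ERK activity together went opposite ways. Spry4 had 23.8, 28.7, 34.4 and 34.4 CPM in set A and 45.4, 51.9 and 67.7 CPM in set B (0.92 ± 0.09, edgeR adjusted p = 9.29e-06). Dusp6, the phosphatase that ends ERK signalling, had 23.9, 19.3, 26.8 and 31.8 CPM in set A and 14.2, 15.1 and 20.9 CPM in set B (-0.53 ± 0.12, edgeR adjusted p = 0.00279) and Spred1, an inhibitor of RAF activation, 414, 402, 629.7 and 570.1 CPM in set A and 287, 289.9 and 343 CPM in set B (-0.62 ± 0.09, edgeR adjusted p = 0.000177). Spry4 and Spred1 did not overlap between sets, in opposite directions, and Spry1 was lower (-0.41 ± 0.12, edgeR adjusted p = 0.0163).

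Immediate early genes gave 5 higher and 3 lower of 22 (22.7% and 13.6%, with 4 and 3 genes after GC offsets, and 1 higher without iXist-ChrX-Cast replicate 3). Junb had 1.05 ± 0.20, edgeR adjusted p = 0.00133 and the nuclear receptor Nr4a1 4.25, 4.06, 4.29 and 4.69 CPM in set A and 7.53, 7.30 and 10.3 CPM in set B (0.98 ± 0.15, edgeR adjusted p = 0.000199), without overlap. Fos (-0.67 ± 0.18, edgeR adjusted p = 0.01) and Fosb (-0.85 ± 0.26, edgeR adjusted p = 0.0196), which bind DNA together with JUN proteins, were lower. Nr4a2, a close relative of Nr4a1 with overlapping function, was among the genes with the largest fall in set B: 20.6, 21.0, 21.5 and 22.1 CPM in set A and 7.42, 5.72 and 7.81 CPM in set B (-1.59 ± 0.13, edgeR adjusted p = 1.22e-06). Both NR4A genes parted all libraries of the sets, in opposite directions.

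BMP genes gave 3 higher and 4 lower of 15 (20.0% and 26.7%), with the ligand Bmp4 higher (0.32 ± 0.11, edgeR adjusted p = 0.031) and the receptors Bmpr1a (-0.24 ± 0.09, edgeR adjusted p = 0.0448) and Bmpr2 (-0.33 ± 0.09, edgeR adjusted p = 0.0119) lower. After GC offsets only Id4 (-0.74) and Bambi (-0.54), both lower, stayed called, and without iXist-ChrX-Cast replicate 3 the 4 lower genes became 1. Notch genes gave 4 higher, the receptors Notch1 (0.48), Notch3 (0.46) and Notch4 (0.71) and the ligand Jag2 (0.54), and 2 lower, the ligand Jag1 (-0.30) and the target Hes1 (-0.58), of 13 (30.8% and 15.4%). With GC offsets 1 was higher and 4 lower, and 1 was higher without iXist-ChrX-Cast replicate 3. Wnt target and feedback genes gave 0 higher and 3 lower of 16, the receptor Tnfrsf19 (-0.87 ± 0.12, edgeR adjusted p = 9.73e-05), Nkd2 and Ccnd1, and 0 and 3 after GC offsets.

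LIF and STAT3 genes gave 2 higher (Bcl3 and Junb) and 1 lower (Gbx2) of 16 (12.5% and 6.25%, with 2 and 2 genes after GC offsets). Retinoic acid genes gave the receptor Rarg higher (0.76 ± 0.12, edgeR adjusted p = 0.000326) and the receptor Rarb (-0.68 ± 0.12, edgeR adjusted p = 0.000695) and the retinal reductase Dhrs3 (-0.91 ± 0.15, edgeR adjusted p = 0.000496) lower, of 11, and 1 and 2 after GC offsets. Of 12 NF-kB targets 5 were higher and 0 lower (median 0.31), but after GC offsets 1 was, the coactivator Bcl3 (0.74 ± 0.13, edgeR adjusted p = 0.000657, and 0.46 with offsets), and single libraries brought the count to 2 (iXist-ChrX-Cast replicates 1 and 3 and iXist-ChrX-Dom replicate 4). Interferon genes gave 1 higher, Irf1 (0.39), and 4 lower of 29 (3.45% and 13.8%), the latter share near the 13.3% of all genes. Among the lower were Gbp2 (-0.71), Gbp3 (-0.81) and the RNA sensor Ifih1 (-0.86). The 4 became 1 without iXist-ChrX-Cast replicate 3, and after GC offsets 0 were higher and 4 lower.

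Genes of cell-cell and cell-matrix contact that were called were mostly higher in set B. Epithelial adhesion and keratin genes gave 5 higher and 0 lower of 16 (median 0.30, and 4 after GC offsets), a count of 8 without iXist-ChrX-Dom replicate 2 and of 3 without iXist-ChrX-Cast replicate 3. Cdh1, E-cadherin, the adhesion molecule that holds mESC colonies together, had 249, 233, 199 and 228 CPM in set A and 357, 326 and 352 CPM in set B (0.59 ± 0.09, edgeR adjusted p = 0.000175). Dsp, the desmoplakin that ties desmosomes to keratin, had 62.1, 82.1, 50.2 and 57.7 CPM in set A and 133, 109.6 and 144 CPM in set B (1.02 ± 0.13, edgeR adjusted p = 5.5e-05), and Tjp3, a scaffold of tight junctions, 4.90, 5.44, 3.44 and 5.40 CPM in set A and 8.33, 8.07 and 12.6 CPM in set B (1.00 ± 0.18, edgeR adjusted p = 0.00087). All 3 parted the sets without overlap. The median of the list was 0.0097 within iXist-ChrX-Dom, where 5 were called higher, and 0.67 within iXist-ChrX-Cast, where 8 were, against the 1 set B library of that line. Keratins Krt8 (0.12) and Krt18 (0.26) were not called.

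Matrix and integrin genes gave 7 higher and 2 lower of 22 (median 0.24), and 6 and 2 after GC offsets, the higher ones being mostly components of basement membrane. Hspg2, the proteoglycan perlecan, had 185, 177, 167 and 194 CPM in set A and 259, 271 and 361 CPM in set B (0.73 ± 0.10, edgeR adjusted p = 7.16e-05), and Lama5, a laminin chain, 165, 176, 158 and 205 CPM in set A and 240.1, 225 and 315 CPM in set B (0.59 ± 0.10, edgeR adjusted p = 0.000543). Col18a1 (0.60 ± 0.09, edgeR adjusted p = 0.000148) and Itgb5 (0.68 ± 0.10, edgeR adjusted p = 0.000114) were higher too. The lower members were a fibrillar collagen, Col5a2 (63.2, 58.9, 59.7 and 55.8 CPM in set A and 35.0, 43.5 and 34.5 CPM in set B, -0.68 ± 0.10, edgeR adjusted p = 0.000121), and Thbs1 (-0.32 ± 0.09, edgeR adjusted p = 0.0188). Of 18 fibroblast markers 3 were higher, Postn, Prrx1 and Col5a1, and 2 lower, Col3a1 and Mmp2 (2 and 4 after GC offsets). These shares (16.7% and 11.1%) were near those of all genes (15.6% and 13.3%).

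Cytoskeletal genes under YAP and SRF that were called were lower. Of 24 tested 0 were higher and 6 lower (median -0.24), and the count rose to 11 with GC offsets and to 10 without iXist-ChrX-Dom replicate 2 or iXist-ChrX-Cast replicate 1. Tagln, the actin-binding transgelin, had 9.28, 7.92, 3.58 and 4.13 CPM in set A and 2.19, 2.20 and 2.304 CPM in set B (-1.54 ± 0.22, edgeR adjusted p = 0.000149), and the difference was larger within iXist-ChrX-Dom (-1.96) than within iXist-ChrX-Cast (-0.76) without passing the interaction test. Cnn1, calponin of smooth muscle, moved like it (-1.58 ± 0.37, edgeR adjusted p = 0.00472). Lats2, the kinase that restrains YAP, had 32.5, 32.8, 33.7 and 29.7 CPM in set A and 20.6, 21.3 and 20.5 CPM in set B (-0.63 ± 0.10, edgeR adjusted p = 0.000251). The usual YAP targets Ctgf (-0.24), Cyr61 (-0.30) and Ankrd1 (-0.28) were not called.

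Metabolic lists were mixed. Cholesterol genes gave 7 higher and 3 lower of 25 (5 and 4 after GC offsets), with early and late enzymes of the pathway such as Mvk (0.78 ± 0.15, edgeR adjusted p = 0.0016) and Tm7sf2 (0.68 ± 0.17, edgeR adjusted p = 0.00667) higher, and Insig1 (-0.48 ± 0.10, edgeR adjusted p = 0.00236) and Idi1 (-0.40 ± 0.11, edgeR adjusted p = 0.0106) lower. None of the 7 was called without iXist-ChrX-Cast replicate 3. The cholesterol shares were 28% higher and 12% lower, against 15.6% and 13.3% of all genes. Glucose uptake and glycolysis genes gave 6 higher and 1 lower of 19 (31.6% and 5.26%). After GC offsets 4 were higher and 4 lower, and without iXist-ChrX-Dom replicate 3 or iXist-ChrX-Cast replicate 3, 2 were higher. The transporter Slc2a1 had 117, 105, 117 and 125 CPM in set A and 151, 149.7 and 195 CPM in set B (0.54 ± 0.08, edgeR adjusted p = 0.000264) and the first enzyme Hk1 0.79 ± 0.14, edgeR adjusted p = 0.000688, while Gapdh, often used as a reference gene, had 257, 206, 223 and 289 CPM in set A and 144, 110.4 and 183 CPM in set B (-0.71 ± 0.12, edgeR adjusted p = 0.000583).

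Fatty acid synthesis genes gave 2 higher (Elovl6 and Srebf1) and 1 lower (Me1) of 12 (16.7% and 8.33%, with 1 and 2 genes after GC offsets). Nuclear genes of the respiratory chain gave 5 higher and 9 lower of 77 (2 and 5 after GC offsets) and proteasome subunits 0 higher and 3 lower of 37 (1 and 3). Cytoplasmic tRNA synthetases gave 2 higher and 0 lower of 20 (2 and 1 after GC offsets), and ribosome biogenesis genes 1 higher and 2 lower of 32 (1 and 2). In these last 4 lists, without offsets, each share was under that of all genes in its direction. Among the tRNA synthetases Cars parted the sets without overlap (93.1, 83.5, 87.2 and 94.1 CPM in set A and 132, 138 and 136 CPM in set B, 0.60 ± 0.08, edgeR adjusted p = 7.81e-05).

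Splicing factors were lower in set B. Of 31 SR proteins and hnRNPs 1 was higher and 14 were lower (45.2%, median -0.19). They are AT-rich (median GC 43.6%), and after GC offsets 9 were lower and 2 higher, while without iXist-ChrX-Dom replicate 4 or iXist-ChrX-Cast replicate 3 there were 7. Hnrnpk, which also links Xist to Polycomb complexes, had 653, 616, 657 and 710.4 CPM in set A and 449, 382 and 442 CPM in set B (-0.62 ± 0.09, edgeR adjusted p = 0.000157), and Srsf2 had 261, 257, 188 and 192 CPM in set A and 166, 152 and 149 CPM in set B (-0.56 ± 0.09, edgeR adjusted p = 0.000308). Both parted the sets without overlap and stayed called with GC offsets (-0.48 and -0.59).

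Among 16 genes of Xist and its silencing cofactors, 2 were higher and 4 lower (3 and 2 after GC offsets, and 2 lower without iXist-ChrX-Dom replicate 2 or iXist-ChrX-Cast replicate 2 or 3). The shares were 12.5% higher and 25% lower, against 15.6% and 13.3% of all genes. The deacetylase Hdac3 was among the higher (0.42 ± 0.11, edgeR adjusted p = 0.00786). The lower were Hnrnpk, Rlim (-0.43 ± 0.09, edgeR adjusted p = 0.0031), the ubiquitin ligase that activates Xist, Smchd1 (-0.27 ± 0.09, edgeR adjusted p = 0.0307), which maintains the inactive X, and Jpx (-0.48 ± 0.18, edgeR adjusted p = 0.0492). Spen, a repressor that binds Xist, was not called (0.25, edgeR adjusted p = 0.0529). Smchd1 and Jpx were not called after GC offsets.

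Polycomb genes gave 6 higher and 1 lower of 26 (7 and 2 after GC offsets, and 3 higher without iXist-ChrX-Cast replicate 3), the higher ones being Phf19, Phf1, Kdm2b, Ezh1, Cbx7 and Jarid2. The shares were 23.1% higher and 3.85% lower, against 15.6% and 13.3% of all genes. Phf19, which helps recruit PRC2, had 13.1, 14.5, 14.3 and 17.5 CPM in set A and 22.9, 23.1 and 31.9 CPM in set B (0.84 ± 0.11, edgeR adjusted p = 8.25e-05), and Jarid2, another PRC2 cofactor, 1542, 1654, 2002 and 1929 CPM in set A and 2407, 2278 and 2224 CPM in set B (0.40 ± 0.10, edgeR adjusted p = 0.00796). Kdm2b, which brings PRC1 to CpG islands, had 0.43 ± 0.08, edgeR adjusted p = 0.0012. The core subunits Ezh2 (-0.18), Eed (0.10), Suz12 (0.01) and Rnf2 (-0.21) were not called, and Sfmbt2, a relative of the Polycomb protein Sfmbt1 and not on the list, is described among the largest changes.

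DNA replication genes gave 1 higher and 8 lower of 26 (median -0.19, and 1 and 7 after GC offsets). The shares were 3.85% higher and 30.8% lower, against 15.6% and 13.3% of all genes. Mcm6, a subunit of the replicative helicase, had 242, 234, 275 and 290.2 CPM in set A and 196, 180.2 and 182 CPM in set B (-0.46 ± 0.09, edgeR adjusted p = 0.00129), and E2f1, a factor that drives this programme, -0.39 ± 0.12, edgeR adjusted p = 0.0277. The higher gene was the histone chaperone Chaf1a (0.32 ± 0.08, edgeR adjusted p = 0.00711). Without iXist-ChrX-Dom replicate 4 the 8 became 2, and without iXist-ChrX-Cast replicate 3 they became 4. Mitosis genes gave 2 higher and 1 lower of 22 (9.09% and 4.55%, with 3 and 0 genes after GC offsets). DNA methylation genes gave 0 of 14 and snoRNA host genes 0 of 11 called in either direction by edgeR or DESeq2, with 2 in each list at an unadjusted edgeR p under 0.05, and with GC offsets 2 of the former were lower and 1 of the latter higher.

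Imprinted genes, expressed from the allele of 1 parent, gave 6 higher and 10 lower of 31 (4 and 9 after GC offsets), and the count of higher genes fell to 2 without iXist-ChrX-Dom replicate 1 or 3. The shares were 19.4% higher and 32.3% lower, against 15.6% and 13.3% of all genes. H19, a maternally expressed long noncoding RNA, had 18.04, 10.1, 12.7 and 17.6 CPM in set A and 27.4, 21.8 and 35.9 CPM in set B (0.98 ± 0.17, edgeR adjusted p = 0.000606). Grb10, a growth factor receptor adaptor, had 63.1, 59.2, 61.7 and 52.9 CPM in set A and 34.4, 31.0 and 25.0 CPM in set B (-1.01 ± 0.10, edgeR adjusted p = 7.33e-06). Plagl1 (-0.75 ± 0.10, edgeR adjusted p = 0.000104), a paternally expressed growth regulator, and Magel2 (-0.82 ± 0.21, edgeR adjusted p = 0.00768), a paternally expressed gene of the Prader-Willi region, were lower, and Igf2r was higher (0.50 ± 0.10, edgeR adjusted p = 0.00184). Igf2, which shares enhancers with H19, was at 0.351 to 0.561 CPM and was not called.

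Of 10 abundant nuclear long noncoding RNAs 3 were higher and 0 lower (4 after GC offsets). Neat1, the scaffold of paraspeckles, had 52.4, 55.7, 61.3 and 61.6 CPM in set A and 114, 113 and 103 CPM in set B (0.94 ± 0.09, edgeR adjusted p = 4.7e-06), and Pvt1 had 575, 585, 648 and 542 CPM in set A and 775, 876 and 815 CPM in set B (0.49 ± 0.09, edgeR adjusted p = 0.00116). Both parted all libraries. Malat1, the neighbour of Neat1, was not called (0.30, edgeR adjusted p = 0.0597), although its 3 set B libraries also lay above its 4 set A libraries.

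Replication-dependent histone genes, short genes whose RNA ends without a poly(A) tail, moved in opposite directions in the 2 lines. Of 57 tested, 0 were higher and 6 lower with both lines together (0 and 9 after GC offsets). Within iXist-ChrX-Dom 26 were lower and 0 higher (median -0.75), and within iXist-ChrX-Cast 10 were higher and 0 lower (median 0.60). Summed over the list they stood at 554 and 612 CPM in iXist-ChrX-Dom replicates 1 and 2 against 367 and 368 in replicates 3 and 4, and at 323 and 518 CPM in iXist-ChrX-Cast replicates 1 and 2 against 589 in replicate 3. Replicate 2 of iXist-ChrX-Cast thus lay nearer to replicate 3 than to replicate 1. Without iXist-ChrX-Cast replicate 3, 24 were lower in both lines together, and without iXist-ChrX-Dom replicate 3, 0 were. No histone gene passed the interaction test. Members have near-identical copies, and only uniquely aligned reads were kept, so reads that fit several copies equally were not counted.

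Rpph1 and Rmrp, the short RNAs of the endonucleases RNase P and RNase MRP, were higher in set B mainly through 1 library. Rpph1 had 563, 427, 391 and 839 CPM in set A and 547, 637 and 1350.4 CPM in set B (0.62 ± 0.20, edgeR adjusted p = 0.0296) and Rmrp 590.0, 376, 350.0 and 424 CPM in set A and 455, 523 and 1031 CPM in set B (0.60 ± 0.21, edgeR adjusted p = 0.0372), with iXist-ChrX-Cast replicate 3 the highest library for both. Within iXist-ChrX-Dom the log2 fold changes were 0.26 and 0.02, within iXist-ChrX-Cast they were 1.12 and 1.40, and neither was called after GC offsets.

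Ribosomal protein genes gave 11 higher and 11 lower of 79 (8 and 11 after GC offsets), close to the shares over all genes. The lines differed in balance, with 4 higher and 11 lower within iXist-ChrX-Dom (median -0.023) and 12 higher and 4 lower within iXist-ChrX-Cast (median 0.22), a difference that was not tested for the list. Their summed share of counts did not differ detectably (0.879% to 1.16% against 0.986% to 1.23%, exact two-sided permutation p = 0.778). Without iXist-ChrX-Cast replicate 3 the 11 higher genes became 1, and without iXist-ChrX-Dom replicate 4 the 11 lower became 4. Rps2 stood apart from the rest, at 122, 107, 85.9 and 111 CPM in set A and 29.5, 43.5 and 33.8 CPM in set B (-1.61 ± 0.13, edgeR adjusted p = 1.22e-06). Its sequence is shared with many processed pseudogenes, and reads that fit several copies equally were not kept in the alignment.

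The called genes with the largest changes, at a mean of at least 2 CPM and without overlap of the sets within either line, belonged to no single class. The largest fall was that of Dach1 (chr14:97786845-98169765), a transcriptional corepressor of organ development: 45.5, 33.6, 32.0 and 21.1 CPM in set A and 10.2, 8.99 and 8.37 CPM in set B (-1.90 ± 0.16, edgeR adjusted p = 2e-06). Ptchd1 (chrX:155569735-155623327), a Patched-related membrane protein of neurons, followed at 31.1, 33.6, 36.3 and 28.3 CPM in set A and 13.2, 13.8 and 5.81 CPM in set B (-1.67 ± 0.19, edgeR adjusted p = 1.94e-05). For both, the highest library of set B was under the lowest of set A. The other genes lower in this group were Cysltr1, Gm10324, Rps2, Lox, Nr4a2, Gabra5, Fam184b, Tmem246, Tagln and Lonrf2, at log2 fold changes of -1.65 to -1.50. Lox, the enzyme that crosslinks collagen, had 2.45, 3.57, 4.64 and 4.08 CPM in set A and 1.17, 1.17 and 1.10 CPM in set B (-1.59 ± 0.24, edgeR adjusted p = 0.000196).

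Lonrf2 had 1.93, 1.83, 10.9 and 9.68 CPM in set A and 1.33, 1.23 and 1.75 CPM in set B (-1.50 ± 0.32, edgeR adjusted p = 0.00232), so most of its difference came from iXist-ChrX-Cast (-2.55 against -0.55 within iXist-ChrX-Dom). Its 4 libraries in iXist-ChrX-Dom lay between 1.23 and 1.93 CPM. Lonrf2 lies on chromosome 1, whose median log2 fold change was -0.26 within iXist-ChrX-Cast and -0.039 within iXist-ChrX-Dom.

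Among genes higher in set B, Sfmbt2 (chr2:10370450-10595253), an imprinted Polycomb-related gene of the placenta with a large microRNA cluster in an intron, combined a large change with high counts: 222, 228, 265 and 257 CPM in set A and 661, 591 and 629 CPM in set B (1.39 ± 0.09, edgeR adjusted p = 8.7e-08). Within each line its change was of like size (1.48 and 1.26). Fyb (chr15:6579846-6665608), an adaptor of immune cells, had 1.40, 1.87, 1.76 and 1.63 CPM in set A and 7.69, 5.11 and 9.02 CPM in set B (2.15 ± 0.20, edgeR adjusted p = 4.7e-06), and Krt42 (chr11:100262881-100269871), a type I keratin, 2.10, 2.68, 2.46 and 3.41 CPM in set A and 8.11, 7.56 and 11.7 CPM in set B (1.82 ± 0.17, edgeR adjusted p = 4.7e-06). All 3 parted the sets without overlap.

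The largest rise of all was that of Gm9833 (chr3:10088276-10092562), a predicted gene counted at 3.63, 3.78, 5.06 and 5.45 CPM in set A and 27.2, 25.1 and 24.7 CPM in set B (2.57 ± 0.14, edgeR adjusted p = 2.02e-08). Rpl14-ps1 and Npm3-ps1 are pseudogenes that share sequence with a parent gene, and their counts are uncertain for that reason. Others were the iodide transporter Slc5a5 (1.62), Trim30d (1.61), the water and glycerol channel Aqp3 (1.53), Zbtb7b (1.52) and Mfsd12 (1.45).

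Set differences that themselves differed between the lines were found for 7 of 15890 genes. Rpl14-ps1 (chr7:45324957-45325651), a ribosomal protein pseudogene of 695 bp, was at 3.59, 3.74, 5.41 and 8.15 CPM in set A and 52.7, 41.3 and 9.47 CPM in set B, that is, high in only the 2 iXist-ChrX-Dom libraries of set B (interaction log2 fold change 3.22, edgeR adjusted p = 0.000155). Inhbb, a subunit of activin B, had 1.93, 1.30, 15.2 and 20.4 CPM in set A and 3.58, 3.11 and 8.92 CPM in set B, higher in set B within iXist-ChrX-Dom (1.06) and lower within iXist-ChrX-Cast (-1.02), with an interaction of 2.06 (edgeR adjusted p = 0.0473). Inhbb lies on chromosome 1, whose median was -0.26 within iXist-ChrX-Cast. Hspb1, a small heat shock protein encoded on chromosome 5 by a gene of 1646 bp, had 13.3, 12.2, 12.7 and 18.04 CPM in set A and 5.18, 4.54 and 18.7 CPM in set B, lower in set B within iXist-ChrX-Dom (-1.39) and not within iXist-ChrX-Cast (0.26).

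Mcf2, Sfrp1 and Pdgfc shared a pattern in which iXist-ChrX-Cast replicates 1 and 2 stood above all other libraries. Pdgfc, a growth factor, had 225, 238, 568 and 459 CPM in set A and 218, 204 and 232 CPM in set B, and Mcf2, a guanine nucleotide exchange factor, 88.3, 89.2, 198 and 187 CPM in set A and 114, 109 and 112 CPM in set B. Sfrp1, a secreted WNT inhibitor, had 50.8, 48.1, 77.2 and 80.3 CPM in set A and 49.7, 49.4 and 39.4 CPM in set B. In each of the 3 the lone set B library of iXist-ChrX-Cast lay closer to the iXist-ChrX-Dom libraries than to its own line's replicates 1 and 2.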

How the data were processed

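Chromatin RNA was sequenced by the authors with a stranded total RNA kit after ribosomal RNA depletion. Per the study's methods and the submitters' processing notes, ribosomal reads were removed with Bowtie2 2.3.2, the rest were aligned with STAR 2.4.2a to mm10 masked at strain variants, fragments were assigned to alleles with SNPsplit, and featureCounts 1.5.2 (file header) counted fragments over whole genes by strand, leaving out those that overlap more than 1 gene. The deposited counts of all fragments are whole numbers per gene (22556 genes) and were used as deposited. The deposited allelic counts gave the Cast share, at 20 allelic fragments or more per gene.

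Sets were compared with edgeR 4.0.16 (R 4.3.3; filterByExpr, TMM, quasi-likelihood, line + set, Benjamini-Hochberg 0.05), with line × set for the interaction. Alternatives used DESeq2 1.42.0 and limma 3.58.1 (voom). GC content is that of the longest GENCODE M21 transcript of each gene. GC and length offsets were chosen after seeing the data. In simulated data with 200 genes changed by 1 on the log2 scale, the set comparison (15657 genes) found 85.5% of them, with 6.04% of calls false. The interaction (15634 genes) found 41.5%, with 7.78% false. The comparison within iXist-ChrX-Dom (15182 genes) found 68.5%, with 6.16% false. These simulations changed 200 genes by the same size and carried no GC trend, whereas 4606 genes were called here and most changes were smaller. Their rates may therefore not hold for these data. With a GC trend in the simulated counts and GC offsets in the fit (15621 genes), 83% were found, with 4.60% of calls false.

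The sample sets and the 55 gene lists were chosen with earlier results of these data known. Named genes are the 12 with the largest change in each direction (at least 2 CPM on average, no overlap within a line), up to 6 called members per list and direction, members with defining roles, Xist and up to 5 genes by interaction. Genes named beside these, such as Malat1, Inhbb and Pdgfc, were chosen after their values were seen. Some genes within these rules are not reported here.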

Additional observations from a re-analysis of the deposited data

Results flagged for a closer look

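Within the 4 iXist-ChrX-Dom libraries, 4 of 293 named genes had a library far from the other 3 by Dixon's criterion. Chance alone flags about 1 in 20 groups, so 4 is fewer than chance gives among genes not chosen by their values. Most of these genes were chosen for a difference between the sets, which leaves less room for a lone far library. Replicate 1 stood apart for Ifih1 (2.15 CPM), Rplp0 (108 CPM) and Zfp677 (10.8 CPM), and replicate 2 for Rps15 (50.1 CPM).

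The set difference itself differed between the lines for 7 genes by the interaction term in edgeR (log2, iXist-ChrX-Dom minus iXist-ChrX-Cast, adjusted over all tested genes). Of those named here it was 3.22 for Rpl14-ps1 (edgeR adjusted p = 0.000155) and 1.11 for Mcf2 (edgeR adjusted p = 0.0139). It was -1.66 for Hspb1, 1.00 for Sfrp1, 2.06 for Inhbb and 1.01 for Pdgfc, each at an edgeR adjusted p of 0.0473. Each rests on 1 library of iXist-ChrX-Cast in set B.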

How the results depend on the processing

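No paired analysis was possible because the replicate number itself fixes the sample set. The 4606 genes called between the sets became 2325 without the line as covariate, 2851 within iXist-ChrX-Dom only, 2188 within iXist-ChrX-Cast only and 420 where a change of 1 or more on the log2 scale, up or down, was also asked for. Leaving out 1 library at a time gave 2518 (without iXist-ChrX-Cast replicate 3) to 4479, and a lone library was then assumed to vary like the others. The count was within 1.5 times the reported one with DESeq2 (4161), voom (4604), other scalings (4443 to 4618), no filter (5043) and GC offsets (3842). Upper-quartile scaling moved the share of calls that were higher from 54.0% to 47.1%. The 7 interaction genes became 30 with DESeq2, 2 with a filter of 1 CPM in 3 libraries and 1 to 52 with 1 library left out. The 2851 genes within iXist-ChrX-Dom became 763 (without replicate 4) to 3641. Among named genes, over all settings, 5025 recomputed values were counted as unchanged, 979 as having lost the call, 18 as having gained it and 3 as reversed. The 3 were Nr5a2 within iXist-ChrX-Cast only (-0.090), and Mcf2 within iXist-ChrX-Dom only (0.33) and without iXist-ChrX-Cast replicate 3 (0.33, with a range of -0.23 to 0.33 over the libraries left out). Not every change of sign was counted as reversed. Hspb1 had -0.62 with both lines and 0.26 within iXist-ChrX-Cast only, and Sfrp1 had -0.38 with both lines and 0.0076 within iXist-ChrX-Dom only. The cause of these changes was not tested. With 1 set B library in iXist-ChrX-Cast, differences within that line have the least support, and genes under about 1 CPM rest on few fragments.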

Other observations

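Core clock genes were called in both directions. Arntl, the activator BMAL1, was higher in set B at 24.7, 26.6, 25.6 and 21.6 CPM in set A and 39.8, 46.1 and 47.0 CPM in set B (0.85 ± 0.10, edgeR adjusted p = 4.07e-05). Per1, a repressor of the loop, was higher too (0.50 ± 0.15, edgeR adjusted p = 0.0206). Lower were Hlf, an output factor driven by that activator (15.1, 14.1, 19.7 and 15.4 CPM in set A and 9.29, 8.53 and 6.96 CPM in set B, -0.95 ± 0.15, edgeR adjusted p = 0.000308), Nr1d2, a repressor of Arntl (-0.54 ± 0.10, edgeR adjusted p = 0.000777), Bhlhe41, another repressor of the loop (-1.20 ± 0.25, edgeR adjusted p = 0.00236), and Cry1. Arntl, Per1, Hlf, Nr1d2 and Bhlhe41 parted all libraries of the sets. Of 14 clock genes 2 were higher and 4 lower, and after GC offsets, where Per1 was not called (0.23), 1 and 6. Without offsets the shares were 14.3% higher and 28.6% lower, against 15.6% and 13.3% of all genes.

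Germline genes, which DNA methylation keeps silent in most cells, gave 2 higher and 5 lower of 22 (1 and 3 after GC offsets, and 3 lower without iXist-ChrX-Cast replicate 2 or 3). The shares were 9.09% higher and 22.7% lower, against 15.6% and 13.3% of all genes. Tdrd1 had 4.60, 6.82, 5.97 and 5.15 CPM in set A and 3.47, 3.22 and 3.56 CPM in set B (-0.72 ± 0.18, edgeR adjusted p = 0.00716) and Brdt -0.59 ± 0.17, edgeR adjusted p = 0.0148, both of them without overlap. Genes named by zinc finger symbols gave 32 higher and 44 lower of 314 (44 and 37 after GC offsets, and 20 and 21 without iXist-ChrX-Cast replicate 3). MicroRNA hairpin genes gave 1 higher and 10 lower of 36 (1 and 8 after GC offsets, and 3 lower without iXist-ChrX-Dom replicate 3 or iXist-ChrX-Cast replicate 3). By line they gave 1 higher and 4 lower within iXist-ChrX-Dom and 0 and 3 within iXist-ChrX-Cast. With both lines together their shares were 2.78% higher and 27.8% lower. Predicted genes gave 92 higher and 219 lower of 1301 (7.07% and 16.8%, with 101 and 191 genes after GC offsets, and 113 lower without iXist-ChrX-Dom replicate 4). Olfactory and vomeronasal receptors gave 1 and 1 of 47 (3 and 0 after GC offsets), Hox genes and Rhox genes 0 and 0 of 6 each by edgeR and by DESeq2 (0 and 1 genes at an unadjusted edgeR p under 0.05, with 1 Rhox gene higher after GC offsets), and none of 58 clustered protocadherins passed the filter.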
